A study of Arabidopsis thaliana with 6 samples.

Results

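An array of 5 genes of the alkenal reductase family stands on the minus strand of Arabidopsis thaliana chromosome 5, made up of AT5G17000, AT5G16990, AT5G16980, AER (AT5G16970) and AT5G16960, given here in their direction of transcription. Reads were counted in a window of 500 bases that begins where a transcript ends, and the array gives 6 of the 39087 transcripts counted and 5 of the 31109 genes. AER was chosen by the counts of its own window in these libraries, so its differences between genotypes are described without a test. The 4 neighbours were taken by their position in the array, and they were tested in a fit of all windows.

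Seedlings of the Col-0 ecotype were sampled at 9 days as cpsf30-1, as nerd-1 and as wild type (WT), with 2 libraries per genotype and no treatment. CPSF30 belongs to the machinery of mRNA cleavage and polyadenylation, whereas NERD takes part in gene silencing through small RNAs. The labels do not give the lesion of either allele, and they do not say whether replicates came from separate plants or how many seedlings were pooled, so p-values measure the spread between these libraries, which may be technical. In whole seedlings, fewer cells of a type and less RNA per cell cannot be told apart.

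Alkenal reductase uses NADPH to saturate the carbon double bond next to the carbonyl group of unsaturated aldehydes and ketones. Such reactive carbonyls form when membrane lipids are oxidised, and they damage proteins, so the enzyme is counted among the detoxifying enzymes of oxidative stress. RefSeq names AER as alkenal reductase and annotates the other 4 as zinc-binding dehydrogenase family proteins. The cleavage complex finds the end of an mRNA through an A-rich signal just upstream of the cut, of which AATAAA is the best known form.

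The ends of the 5 genes differ in whether they hold AATAAA itself, and other A-rich forms of the signal were not searched. The stretches shown run from 40 to 11 bases before each annotated end, read 5′ to 3′ on the minus strand from the TAIR10.1 sequence, with any AATAAA in capitals. They are shown because the positions of the counted windows were rebuilt from these ends. The ends that the authors used may lie elsewhere for some genes.
AT5G17000, chr5:5584718-5584747: tcaaaaatgtaattaagttagtgttgctat
AT5G16990, chr5:5581534-5581563: taaatagtaaatacaaacccagagcctaaa
AT5G16980, chr5:5578856-5578885: agcatcaatgaatacaatttgtgcaactcc
AER, chr5:5575983-5576012: tagtttagcaAATAAAaagattatctcctc
AT5G16960, chr5:5573710-5573739: taccatctaaaagctcgagaaaccagcacg
AER alone among the 5 held AATAAA in its last 50 bases, starting 30 bases before the end. Of 30618 genes with a position, 8.78% hold it there. A second AATAAA began 47 bases past the AER end, inside the rebuilt window, and is shown with its surroundings at chr5:5575909-5575938.
AER, past the end: taagtagagacaAATAAAgacgttgaggaa
Past the other ends the same letters were found in the windows of AT5G16990 (from base 428) and AT5G17000 (from base 241), and not in those of AT5G16980 and AT5G16960. Over all genes, 45% of windows hold them, on the transcribed strand searched here. A match is only a description of the letters.

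A window takes the name of the gene upstream, and in this array most windows lie partly on the next gene. The positions given here are those rebuilt from the reference, and the authors' windows may differ from them. The AER window, at 5575473 to 5575972 on chromosome 5, lies over 438 bases of AT5G16960, of which 353 are exon and 85 intron, and the remaining 62 bases lie between both genes. The window past AT5G17000 lies over 259 exon bases of AT5G16990, and that past AT5G16990 over 288 exon bases of AT5G16980. The window past AT5G16980, at 5578346 to 5578845, meets no annotated gene and stops 259 bases short of the start of AER. The window past AT5G16960 meets only AT5G02635, on the other strand, over 104 bases. Reads that run on from the upstream gene and reads of the next gene's own transcript cannot be told apart in these counts. At the rebuilt positions no member's window lies on exons of AER, so there the level of the AER transcript itself is not measured.

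**Figure D1:**
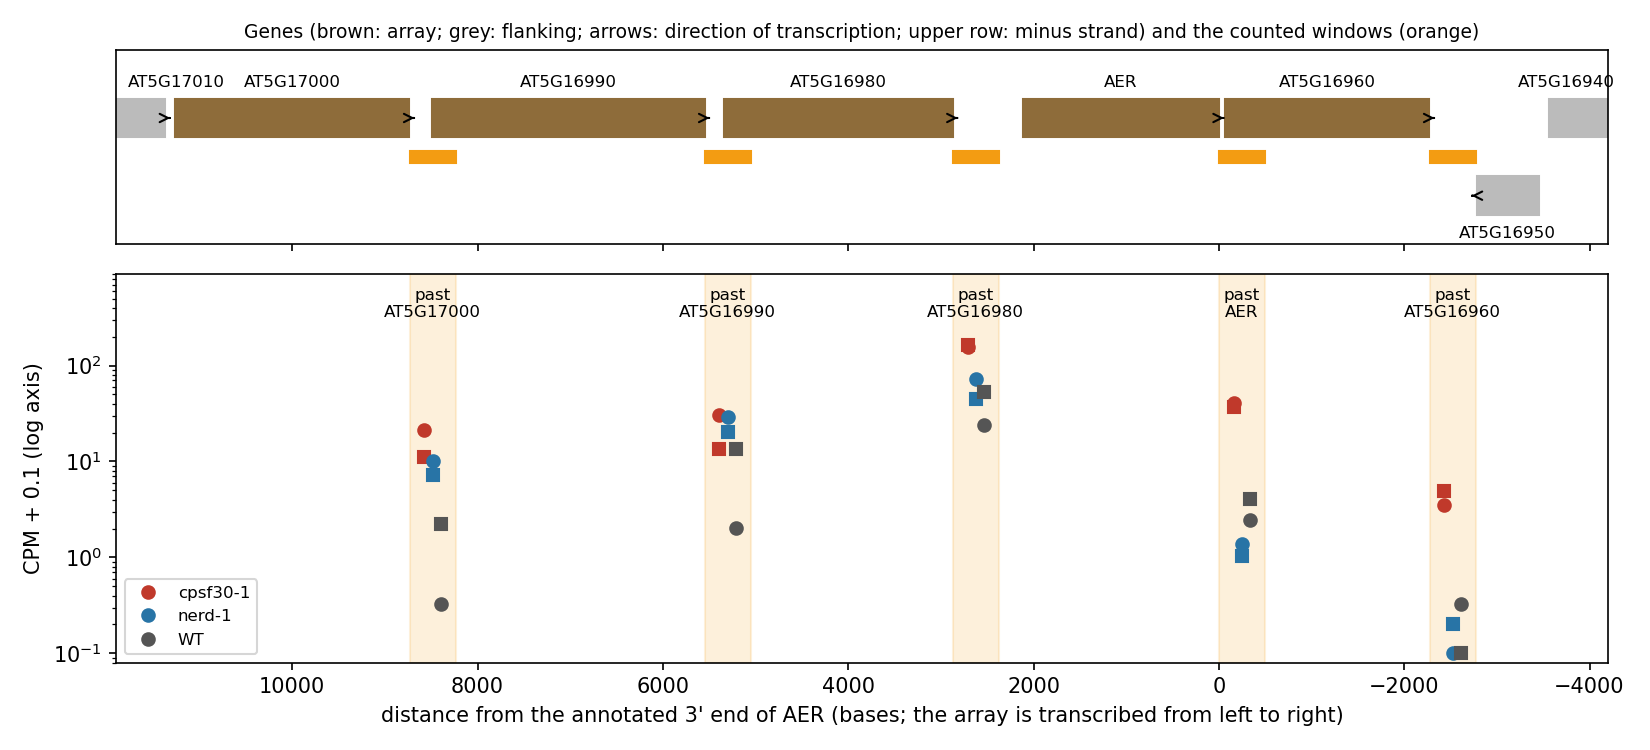
Map of the array and the level of each counted window. The upper part shows the genes and the 5 array windows against the distance from the annotated 3' end of AER in bases, and the lower part shows CPM plus 0.1 on a log axis, with circles for replicate 1 and squares for replicate 2. The cpsf30-1 points lie above all others past AT5G17000, AT5G16980, AER and AT5G16960, and past AT5G16990 the genotypes mix.

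The coding sequences are close relatives, with 1032 to 1041 coding bases in 4 of the genes and 720 in AT5G16980. AER shares 94.9% of aligned coding bases with AT5G16980, 93.1% with AT5G17000 and 92.2% with AT5G16990, but 79.3% with AT5G16960. AT5G16960, the gene under the AER window, was equally far from the other 3, at 79.4% to 81.8%. Outside its own position, no window had an alignment of at least 100 bases at more than 85.4% identity in the genome. That match was of the window past AT5G16990 to bases 5584602 to 5584732. These bases run across the end of AT5G17000 and lie mostly in the rebuilt window past it. The windows are thus related in part but are not near-identical copies of each other.

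Total counts over all transcripts were 13973971 and 15382351 in cpsf30-1, 13353807 and 13301722 in nerd-1, and 11793952 and 18569498 in WT. Levels are given as counts or as CPM, counts relative to library totals scaled by TMM, and a count of 0 allows up to 0.218 to 0.345 CPM of a library total, for counting error only. A window past the shorter transcript of CPSF30 checks the labels, with 1 and 0 counts in cpsf30-1, 66 and 58 in nerd-1 and 43 and 49 in WT. The window past its other transcript held 4 and 16 counts in cpsf30-1, 3 and 4 in nerd-1 and 4 and 2 in WT, and it was not lower in cpsf30-1. The window past NERD held 0 to 3 counts, which checks nothing. Windows do not lie on the exons of their own genes as a rule, so tissue markers can be read only loosely. The summed windows of 10 root markers held 153 and 129 CPM in cpsf30-1, 172 and 167 in nerd-1 and 170 and 166 in WT. The 10 shoot markers held 17414 and 19647 CPM in cpsf30-1, 14269 and 16060 in nerd-1 and 14420 and 16355 in WT, and 0 of the 20 windows was empty in all libraries. Most of the shoot sum was the RBCS2B window, at 11065 and 11726 CPM in cpsf30-1, 8813 and 9221 in nerd-1 and 7303 and 8563 in WT. That window was not called in cpsf30-1 against WT (edgeR adjusted p = 0.248). Both sums in cpsf30-1 lay outside the range of the other genotypes, and their part in the results was not tested.

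Reads past AER were far more numerous in cpsf30-1 than in either other genotype. The window held 422 and 399 counts in cpsf30-1, 13 and 9 in nerd-1, and 21 and 53 in WT. In CPM these were 38.9 ± 2.70 in cpsf30-1, 1.10 ± 0.235 in nerd-1 and 3.18 ± 1.14 in WT (SD, n = 2 each). Both cpsf30-1 libraries stood above all 4 others, and both nerd-1 libraries stood below both WT libraries. The log2 fold change was 3.58 in cpsf30-1 against WT (SE 0.291) and 5.12 in cpsf30-1 against nerd-1 (SE 0.331), the second a 34.8-fold difference. In nerd-1 it was 2.91-fold lower than in WT (log2 fold change -1.54, SE 0.347). These are the values for which AER was chosen, and no test of them is given.

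AT5G16960 follows AER and ends the array. Its window, at 5573200 to 5573699, held 35 and 52 counts in cpsf30-1, 0 and 1 in nerd-1, and 2 and 0 in WT. It was near empty outside cpsf30-1, and the cpsf30-1 libraries stood apart from the 4 others. The ratio of cpsf30-1 to WT was 45.6 on pooled reads, with a 95% exact counting interval of 12.2 to 382. In edgeR's quasi-likelihood test with Benjamini-Hochberg adjustment over 14151 windows the log2 fold change was 5.29 (SE 0.996, adjusted p = 0.0200). The ratio to nerd-1 was 81.8 with an interval of 14.3 to 3269 (edgeR adjusted p = 0.0195). These intervals cover counting error only, not the spread between libraries. The window passed edgeR's filter on low counts only through its cpsf30-1 libraries. A rise was thus the only outcome open to it, and both calls are given as a description. The first call was lost without cpsf30-1 replicate 1 (edgeR adjusted p = 0.0641) or replicate 2 (0.0952), and the ratio to WT was at least 18.3 without WT replicate 1, against 3 counts in the remaining library, and 18.2 (4.89 to 153) without WT replicate 2. The second call was lost without either nerd-1 library (edgeR adjusted p 0.141 and 0.119) or either cpsf30-1 library (0.0722 and 0.0774), and the ratio was 39.6 (6.93 to 1582) without nerd-1 replicate 1 and at least 14.1 without replicate 2, against 3 counts in the remaining library.

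The window past AT5G16980, upstream of AER, was the highest of the array in every library. It held 1597 and 1747 counts in cpsf30-1, 744 and 432 in nerd-1, and 213 and 710 in WT. Both cpsf30-1 libraries exceeded all others, whereas nerd-1 and WT overlapped. At 158 ± 5.34 CPM in cpsf30-1 against 38.8 ± 20.7 in WT (SD, n = 2 each) it rose 4.07-fold (log2 fold change 2.02, SE 0.383, edgeR adjusted p = 0.0205). Without cpsf30-1 replicate 1 or 2 the call was lost (edgeR adjusted p 0.0766 and 0.0906), and without WT replicate 2 the log2 fold change was 2.68. In nerd-1 against WT the log2 fold change was 0.60 (SE 0.374, edgeR adjusted p = 0.629), and 1.30 without WT replicate 2. Against 58.8 ± 19.6 CPM in nerd-1 (SD, n = 2) the log2 fold change was 1.43 (SE 0.376) and missed the threshold (edgeR adjusted p = 0.0549). It passed without WT replicate 1 (edgeR adjusted p = 0.00709) or WT replicate 2 (0.0123), which enter that comparison only through the shared estimate of the spread. The other deposited transcript, AT5G16980.2, held 1114 and 1468 counts in cpsf30-1, 653 and 351 in nerd-1, and 154 and 575 in WT, a 3.90-fold rise over WT in the fit of all 19294 transcripts tested (edgeR adjusted p = 0.0345). Both transcripts share 1 end in the reference although their counts differ, so the position of this window is approximate.

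AT5G17000, the first gene of the array, had a window that was high in both mutants. It held 219 and 120 counts in cpsf30-1, 102 and 68 in nerd-1, and 2 and 28 in WT. The genotypes did not overlap and stood in that order, but WT replicate 1 had less than any other library. The window rose 12.6-fold in cpsf30-1 over WT (16.2 ± 7.11 against 1.17 ± 1.33 CPM, SD, n = 2 each, log2 fold change 3.66, SE 0.690, edgeR adjusted p = 0.0201). The call was lost without cpsf30-1 replicate 1 (edgeR adjusted p = 0.0826), and the log2 fold change was 2.93 without WT replicate 1 and 6.04 without WT replicate 2. In nerd-1 the level was 8.51 ± 2.04 CPM (SD, n = 2), with a log2 fold change of 2.73 over WT (SE 0.691) that missed the threshold (edgeR adjusted p = 0.303). Without WT replicate 2 it was 5.17 and passed (edgeR adjusted p = 0.0365), and without WT replicate 1 it was 2.01 (0.174). DESeq2 on all libraries called it (adjusted p = 0.00474). Between cpsf30-1 and nerd-1 the log2 fold change was 0.92 (SE 0.583, edgeR adjusted p = 0.340).

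AT5G16990, the second gene, was the member whose window did not pass in any comparison. It held 313 and 145 counts in cpsf30-1, 297 and 195 in nerd-1, and 17 and 179 in WT. WT replicate 1 was low, and WT replicate 2 had the same level as cpsf30-1 replicate 2, at 13.5 CPM each. The log2 fold change was 1.47 in cpsf30-1 against WT (SE 0.753, edgeR adjusted p = 0.256), 1.64 in nerd-1 against WT (SE 0.755, 0.536) and -0.17 in cpsf30-1 against nerd-1 (SE 0.725, 0.896). Without WT replicate 2 the first of these was 3.46 and passed (edgeR adjusted p = 0.0186), and without WT replicate 1 it was 0.70 (0.383). For nerd-1 against WT the same fits gave 3.68 (0.0609) and 0.87 (0.356). The third turned to 0.11 without nerd-1 replicate 1 and to 0.23 without cpsf30-1 replicate 2.

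**Figure D2:**
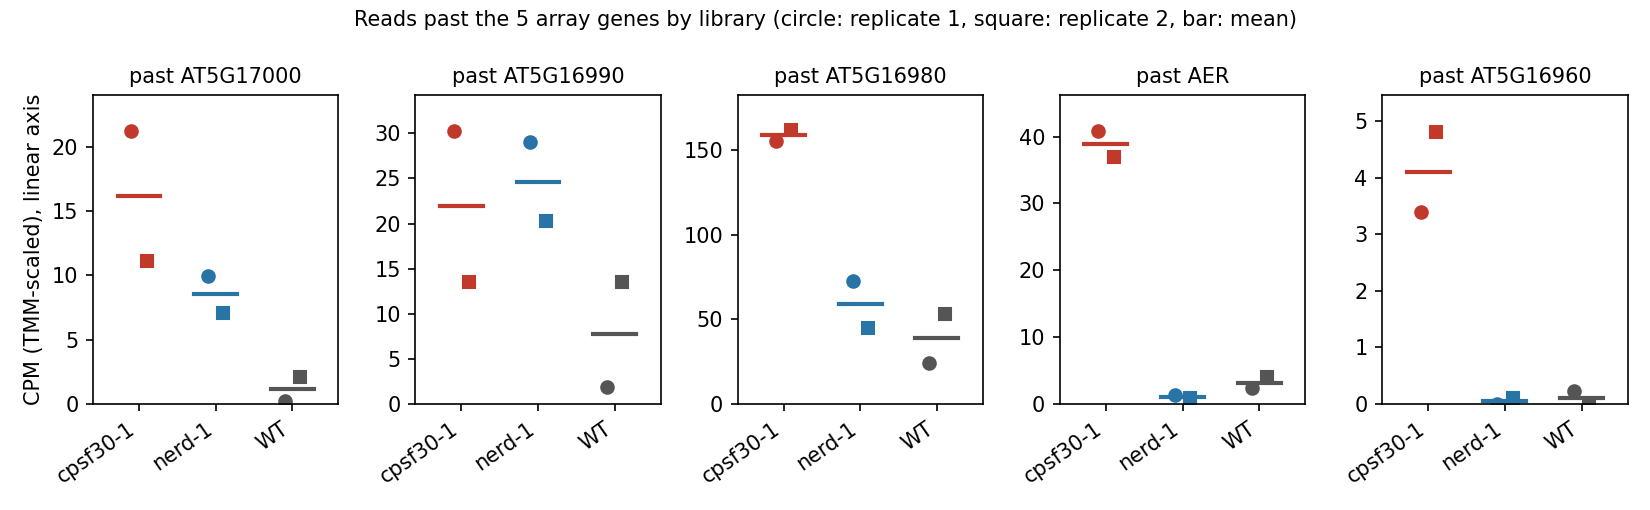
Level of each window by library, in CPM on a linear axis from 0 that differs between panels, with circles for replicate 1, squares for replicate 2 and bars for the mean of 2 libraries. Past AER and AT5G16960 both cpsf30-1 libraries stand far above the rest (40.8 and 37.0 CPM past AER), and past AT5G17000 and AT5G16990 WT replicate 1 is the lowest library.

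Of the 4 neighbours of AER, 3 rose and 0 fell in cpsf30-1 against WT, where 10.3% of all 14151 windows tested were called (7.41% rose and 2.85% fell). All 4 passed the filter on low counts, and their median log2 fold change was 2.84, against -0.01 over all windows tested. AT5G16960, which is also the 1 call against nerd-1 given next, passed it only through its cpsf30-1 libraries. A rise was thus the only outcome open to that window. In cpsf30-1 against nerd-1, 1 of 4 rose and 0 fell, where 10.6% of all windows were called (7.38% rose and 3.24% fell), with a median of 1.18 against 0.04. In nerd-1 against WT, edgeR called 0 of 4, with 1 at an unadjusted p under 0.05, and DESeq2 called 1. Over all windows 0.0424% were called in that comparison (0.00707% rose and 0.0353% fell). Both mutants are set against the same WT libraries, and the array was chosen with results of these data known. Without cpsf30-1 replicate 1 the 3 calls against WT became 0, and without cpsf30-1 replicate 2 they became 1, in fits that called 506 and 479 of all windows in place of 1453. Without WT replicate 2 they became 4. The 1 call against nerd-1 became 0 without either nerd-1 or either cpsf30-1 library and 2 without either WT library. In nerd-1 against WT, 1 neighbour was called without WT replicate 2.

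The 2 WT libraries differed more at the upstream end of the array than at most windows. The log2 difference of replicate 2 over replicate 1, on CPM plus 0.5, was 2.53 past AT5G16990, a gap exceeded by 0.728% of tested windows. It was 1.84 past AT5G17000 (exceeded by 1.37%) and 1.13 past AT5G16980 (6.93%). Past AER it was 0.64, which 26.1% of windows exceeded. In cpsf30-1 the difference was -1.14 past AT5G16990 (5.40%), -0.90 past AT5G17000 (10.9%) and 0.07 past AT5G16980 (89.0%). In nerd-1 the same windows gave -0.50 (18.0%), -0.47 (20.5%) and -0.69 (10.9%). The difference past AER was -0.14 in cpsf30-1 and -0.30 in nerd-1. The WT libraries also differed most in total counts, and the part of depth in these gaps was not tested.

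All windows span 500 bases, so their levels can be ordered within a genotype. In cpsf30-1 the order was AT5G16980, AER, AT5G16990, AT5G17000 and AT5G16960, and the libraries of AT5G16990 (30.3 and 13.5 CPM) and AT5G17000 (21.2 and 11.1 CPM) overlapped. In nerd-1 it was AT5G16980, AT5G16990, AT5G17000, AER and AT5G16960, with no overlap between neighbours in the order. In WT AT5G16980 was again highest and AT5G16960 lowest, but the libraries of AT5G16990 (1.92 and 13.5 CPM), AER (2.38 and 3.99 CPM) and AT5G17000 (0.226 and 2.11 CPM) overlapped or nearly met, and AT5G16960 and AT5G17000 were equal in WT replicate 1 at 2 counts each. AER thus held the second place in cpsf30-1 and the fourth in nerd-1.

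The division of reads within a library does not depend on its depth. The 5 windows together held 2586 and 2463 counts in cpsf30-1, 1156 and 705 in nerd-1, and 255 and 970 in WT. The AER window took 16.3% and 16.2% of them in cpsf30-1 (95% Clopper-Pearson intervals 14.9% to 17.8% and 14.8% to 17.7%), 1.12% and 1.28% in nerd-1 (0.600% to 1.92% and 0.585% to 2.41%), and 8.24% and 5.46% in WT (5.17% to 12.3% and 4.12% to 7.09%). The intervals cover counting error only and take reads as independent molecules. The share was almost equal within each mutant, and WT lay between both mutants. The share past AT5G16990 ran the other way between the mutants, at 12.1% and 5.89% in cpsf30-1, 25.7% and 27.7% in nerd-1, and 6.67% and 18.5% in WT. AT5G16980 took most of the reads in every library, from 61.3% in nerd-1 replicate 2 to 83.5% in WT replicate 1. These shares rest on the same counts as the AER values and are a description.

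**Figure D3:**
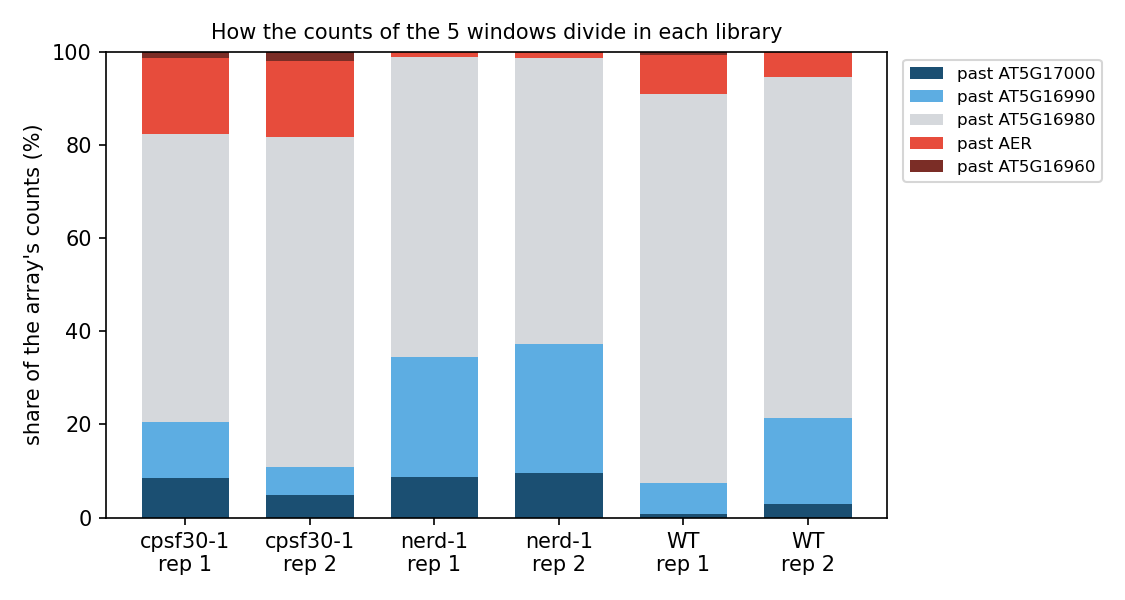
Share of the array's counts taken by each of the 5 windows in each library, in percent, as stacked bars. The AER segment is 16.3% and 16.2% in cpsf30-1, 1.12% and 1.28% in nerd-1, and 8.24% and 5.46% in WT.

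Beyond both ends of the array, the next windows also rose in cpsf30-1. AT5G17010, a major facilitator superfamily transporter gene just upstream, has a window that in the reference lies over 394 exon bases of AT5G17000, the first array gene. It held 1049 and 1175 counts in cpsf30-1, 411 and 386 in nerd-1, and 297 and 389 in WT. That was a 3.35-fold rise over WT (log2 fold change 1.74, SE 0.173, edgeR adjusted p = 0.00338) and a 2.62-fold rise over nerd-1 (SE 0.171, 0.00592). The first call was kept with any 1 library left out, and the second was lost without either nerd-1 library (edgeR adjusted p 0.106 and 0.109) or cpsf30-1 replicate 2 (0.0515). The window past AT5G17010.3 is the one given here, and AT5G17010.1 and AT5G17010.2 had identical counts although their ends differ from it in the reference. The deposited transcript AT5G17010.4, with the same end as AT5G17010.3 in the reference, held 274 and 262 counts in cpsf30-1, 179 and 179 in nerd-1, and 111 and 285 in WT, and it missed the threshold against WT (log2 fold change 0.53, SE 0.277, edgeR adjusted p = 0.255 in the fit of all transcripts). The position of this window is thus approximate too.

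AT5G16950, downstream and on the other strand, faces AT5G16960, and the windows of both share 492 bases in the reference. The window past AT5G16950 held 53 and 43 counts in cpsf30-1, 6 and 2 in nerd-1, and 5 and 5 in WT. It passed the filter on low counts only through its cpsf30-1 libraries, so a rise was the only outcome open to it. Both this window and that past AT5G16960 (35 and 52 counts in cpsf30-1) were high in the cpsf30-1 libraries. They share most bases but belong to opposite strands, so whether they hold the same reads is not known, and they are not taken as independent. The window past AT5G16950 rose 9.69-fold over WT (log2 fold change 3.28, SE 0.599, edgeR adjusted p = 0.0179), and lost the call without WT replicate 2 (0.0584) or cpsf30-1 replicates 1 and 2 (0.0881 and 0.0707). Whether the authors counted by strand is not given in the sources used here. In all, 3 of the 10 flanking windows tested between AT5G16900 and AT5G17060 rose and 0 fell in cpsf30-1 against WT, where 7.41% and 2.85% of all windows did so, with log2 fold changes from -0.57 to 3.28, and 2 of 12 flanking windows did not pass the filter. The third was the window past AT5G16900, whose call was lost without WT replicate 2 or any 1 of the mutant libraries (edgeR adjusted p 0.0769 to 0.139). The 3 calls became 1 without WT replicate 2 or either cpsf30-1 library, and 2 without either nerd-1 library. In cpsf30-1 against nerd-1, 2 of the 10 rose (AT5G17010 and AT5G16950, log2 fold change 3.47 for the second, edgeR adjusted p = 0.0183) and 1 fell (AT5G16940, -0.94, edgeR adjusted p = 0.0338), where 7.38% of all windows rose and 3.24% fell. In edgeR those calls became 1 higher and 0 lower without cpsf30-1 replicate 1, 2 and 2 without WT replicate 2, and none in either direction (0 of 10) when cpsf30-1 replicate 2 or one of the nerd-1 libraries was left out.

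**Figure D4:**
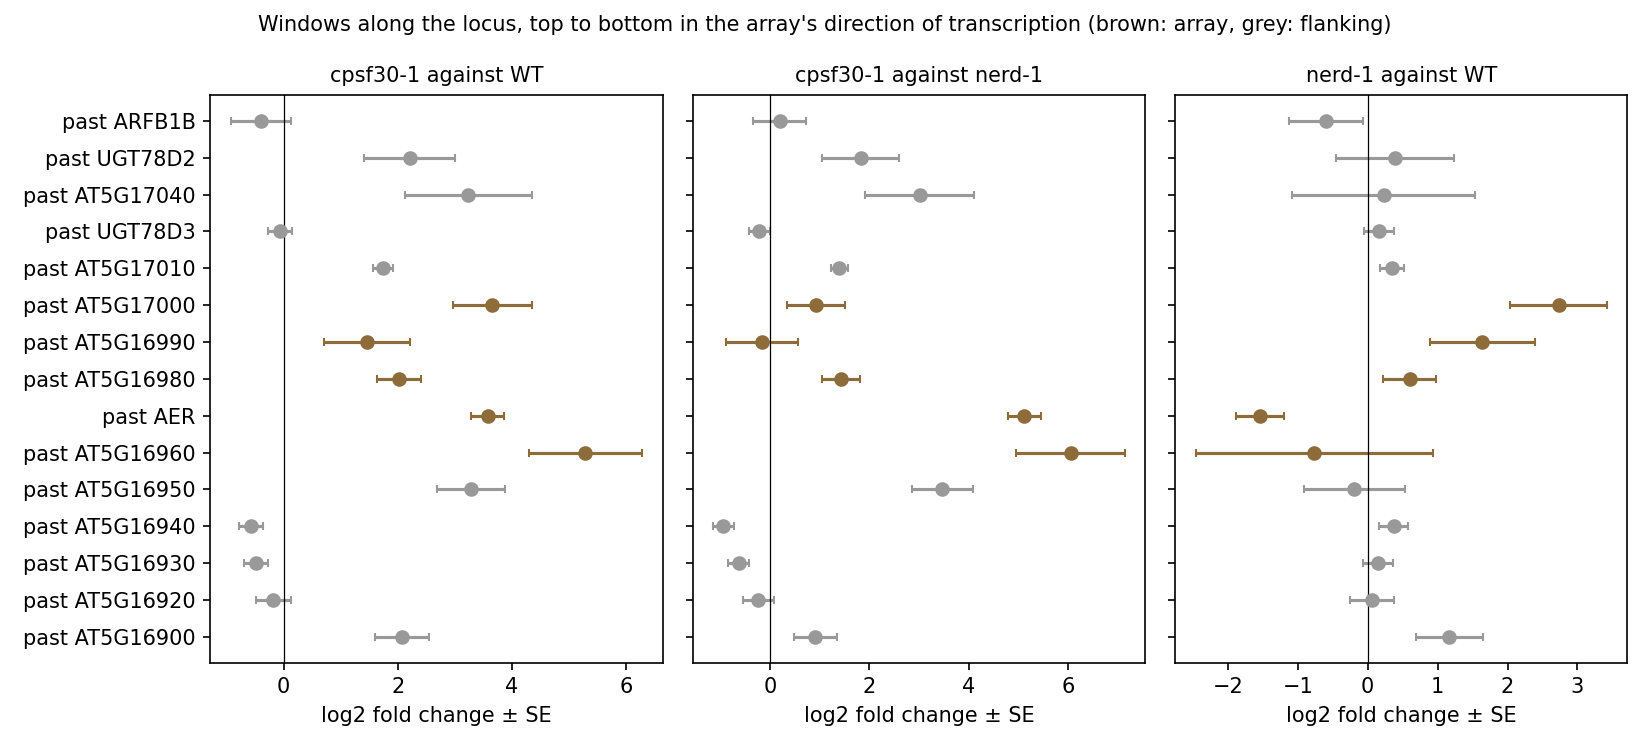
Log2 fold change with SE of the 5 array windows and the 10 flanking windows tested, in the order of transcription of the array, for cpsf30-1 against WT, cpsf30-1 against nerd-1 and nerd-1 against WT. Array windows are brown and flanking ones grey. In cpsf30-1 against WT all 5 array windows lie above 0 (1.47 to 5.29), and the AER value is 5.12 in cpsf30-1 against nerd-1 and -1.54 in nerd-1 against WT. The values of AT5G16960 rest on 2 counts in WT and 1 in nerd-1.

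Other genes of the family, away from the array, gave 0 calls in 3 windows tested, where 10.3% of all windows were called in cpsf30-1 against WT. A set of 3 is too small to set the family apart from the array or from other windows. Of 7 genes listed, 4 (AT5G37940, AT5G37980, AT5G38000 and AT1G65560) had 0 or 1 count in every library and were not tested. The window past AT3G03080 held 1849 and 2234 counts in cpsf30-1, 1215 and 1355 in nerd-1, and 1242 and 2107 in WT, with a log2 fold change of 0.37 in cpsf30-1 against WT (SE 0.161, edgeR adjusted p = 0.191). The values past AT1G26320 and AT3G59845 were -0.05 (SE 0.793) and -0.22 (SE 0.339), with edgeR adjusted p of 0.980 and 0.734. The window past AT1G26320 held only 4 to 13 counts a library. For these 3 windows 0 passed at an unadjusted p under 0.05 in this comparison, and DESeq2 called 0.

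Windows past other genes that remove reactive carbonyls were tested in cpsf30-1 against WT, where 7.41% of all windows tested rose and 2.85% fell. Of the aldehyde dehydrogenases, which oxidise aldehydes to acids, 1 of 5 tested rose and 0 fell (ALDH10A9, 2.25-fold, SE 0.262, edgeR adjusted p = 0.0344), with a median log2 fold change of -0.06. Of the aldo-keto reductases and glyoxalases 1 of 3 rose, namely GLX1 of methylglyoxal detoxification, at 35 and 23 counts in cpsf30-1 and 0 and 2 in WT (ratio 30.4, exact counting interval 8.04 to 257, edgeR adjusted p = 0.0183). That ratio was 18.3 (4.83 to 154) without WT replicate 1 and at least 8.09 without WT replicate 2, against 3 counts in the remaining library. Its intervals cover counting error only. The GLX1 window passed the filter on low counts only through its cpsf30-1 libraries, so a rise was the only outcome open to it. The calls of ALDH10A9 and GLX1 were lost without cpsf30-1 replicate 1 or 2 (edgeR adjusted p 0.0627 to 0.130), and that of ALDH10A9 also without WT replicate 2 (0.118) or nerd-1 replicates 1 and 2 (0.0836 and 0.0852). Of 9 windows of conjugating and enone-reducing enzymes 1 rose, that of the glutathione transferase GSTU19, at 11.8 ± 0.418 CPM in cpsf30-1 against 0.810 ± 0.294 in WT (SD, n = 2 each, 14.8-fold, SE 0.436, edgeR adjusted p = 0.00484). The GSTU19 window, too, passed the filter on low counts only through its cpsf30-1 libraries, so a rise was the only outcome open to it. Its log2 fold change of 3.89 was 4.27 without WT replicate 1 and 3.49 without WT replicate 2. DESeq2 called 3 windows of this list.

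Of the genes that give rise to lipid-derived enals 0 of 3 tested rose or fell in edgeR, 0 at an unadjusted p under 0.05 and 0 in DESeq2. Of the antioxidant enzymes 4 of 8 rose and 0 fell, with a median log2 fold change of 1.42, and the 4 became 2 without cpsf30-1 replicate 1. Of the 4, the windows past APX1, FSD1 and GR2 passed the filter on low counts only through their cpsf30-1 libraries. A rise was thus the only outcome open to them, and the count and the median include them. The remaining window, past CAT2, the main leaf catalase, rose 5.79-fold (88.3 ± 7.65 CPM in cpsf30-1 against 15.2 ± 7.51 in WT, SD, n = 2 each, SE 0.359, edgeR adjusted p = 0.00825). Its log2 fold change of 2.53 was 2.11 without WT replicate 1 and 3.13 without WT replicate 2. Of the marker windows 0 of 8 tested for root and 3 of 10 for shoot rose, and 0 fell in edgeR, with 2 and 5 at an unadjusted p under 0.05. In DESeq2 1 root window fell and 4 shoot windows rose, and without either cpsf30-1 library edgeR called 2 shoot windows. In nerd-1 against WT edgeR called 0 windows of any of these 8 lists, with 1 conjugating enzyme, 2 root and 3 shoot windows at an unadjusted p under 0.05, and DESeq2 called 1 shoot window lower. In cpsf30-1 against nerd-1 edgeR called 4 of 8 antioxidant, 3 of 10 shoot, 2 of 9 conjugating enzyme (GSTU19 and GSTU20) and 1 of 3 aldo-keto reductase and glyoxalase windows higher. It called 1 of 8 root windows lower, that of SCR (log2 fold change -0.95, edgeR adjusted p = 0.0321). Without either nerd-1 library edgeR called 1 antioxidant window, 0 windows of the conjugating, glyoxalase and root lists, and 1 (without replicate 1) or 0 shoot windows. Without either cpsf30-1 library it called 0 glyoxalase and 0 root windows, without cpsf30-1 replicate 1 it called 2 antioxidant and 2 shoot windows, and without replicate 2 it called 1 conjugating enzyme window. Of the other alkenal reductases, the aldehyde dehydrogenases and the enal sources, edgeR and DESeq2 called 0 in that comparison, with 1, 2 and 0 at an unadjusted p under 0.05, and edgeR called 1 aldehyde dehydrogenase without WT replicate 1. Counts in these lists stand beside the shares of all windows that rose and fell. These were 7.41% and 2.85% in cpsf30-1 against WT and 7.38% and 3.24% in cpsf30-1 against nerd-1. In nerd-1 against WT they were 0.00707% and 0.0353%. A window that passed the filter only through its cpsf30-1 libraries could only be called higher in them. Among the windows called, this holds for GLX1, GSTU19, GSTU20, APX1, FSD1, GR2 and the shoot marker RBCS3B. As in the array, a window can lie on another gene.

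Many windows were, like that of AER, higher in cpsf30-1 than in the other genotypes. Over log2 of CPM plus 0.5 in the 6 libraries, 450 windows outside the array, of 14151 tested in all, correlated with that of AER above 0.95 (Pearson). With so few libraries, a window that is equal in nerd-1 and WT and only higher in cpsf30-1 can pass that value. The count thus does not show how many windows were also lower in nerd-1 than in WT. The 5 most alike were those past RAC10, a small GTPase gene, AT5G45430, SSL2, BXL3 and AT1G68580, with coefficients from 0.996 to 0.998. The window past BXL3 held 66.4 and 40.9 CPM in cpsf30-1, 0.878 and 0.416 in nerd-1, and 1.36 and 3.54 in WT. Within the array the coefficient with AER was 0.947 for AT5G16960, 0.816 for AT5G16980, 0.485 for AT5G17000 and 0.189 for AT5G16990, while AT5G16990 and AT5G17000 had 0.90 with each other. These are descriptions over the same 6 libraries.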

How the data were processed

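PolyA RNA of seedlings was sequenced in 6 libraries, with a stranded kit per the labels' protocols. The authors deposited, for each transcript, raw counts in the 500 bases after its 3' UTR, without normalisation. Per the submitters' processing notes, Cufflinks 2.2.1, Cuffdiff, TopHat2 2.0.7, Bowtie2 2.3.4 and TAIR10 were used. The sources used here give neither the counting tool nor its strand setting. Window positions were rebuilt from RefSeq gene models (TAIR10.1), which left 560 transcripts without a position. For each gene the transcript ending farthest downstream was kept.

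Counts were fitted with edgeR 4.0.16 (limma 3.58.1, R 4.3.3) on all 6 libraries, with 1 mean per genotype and no block. The filter of edgeR on low counts left 14151 windows tested and 16958 not, libraries were scaled by TMM, and differences were tested two-sided by quasi-likelihood with Benjamini-Hochberg adjustment over all windows of a comparison and a threshold of 0.05. SE is the log2 fold change divided by the root of F. The code was tested on simulated data. Sequences were compared with BLAST 2.17.0 and Biopython 1.88. Alternatives were DESeq2 1.42.0, its size factors, no filter, the replicate number as a block, other transcripts, the 4 libraries compared, and each library left out on the same windows.

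The members, lists and tests were chosen with earlier results of these data known. The lists were other alkenal reductases, aldehyde dehydrogenases, aldo-keto reductases and glyoxalases, conjugating and enone-reducing enzymes, sources of enals, antioxidant enzymes, and root and shoot markers. The naming rule took all array transcripts, the genes under and beside their windows, the tested family members, the 5 windows most like that of AER, and up to 3 members of each list by adjusted p, of which only some that passed are named.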

Additional observations from a re-analysis of the deposited data

How the results depend on the processing

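The direction of the AER window was kept in every comparison under all alternatives run. Calls among its 4 neighbours in cpsf30-1 against WT were 3 in edgeR and stayed 3 with DESeq2, its size factors, other transcripts or only the 4 libraries compared. Without the filter the counts of neighbours called were 4 in cpsf30-1 against WT, 3 in cpsf30-1 against nerd-1 and 2 in nerd-1 against WT, and all windows called were 2807, 3021 and 640 in the same order. With DESeq2, 2 neighbours were called in cpsf30-1 against nerd-1 and 1 in nerd-1 against WT, where 146 windows in all were called in place of 6. With only the 4 libraries compared, 2 neighbours were called in cpsf30-1 against nerd-1, and all windows called were 823, 2234 and 2. With all deposited transcripts, 10 of them were called in nerd-1 against WT, and the other totals moved by under 1.5 times. With 1 library left out, neighbours called ranged from 0 to 4, 0 to 2 and 0 to 1 in the 3 comparisons in that order, and all windows called from 479 to 1159, 43 to 2304 and 0 to 91, lowest without a mutant library and highest without a WT library. In nerd-1 against WT the log2 fold change past AT5G16960, on 0 to 2 counts a library, ranged from -3.17 to 2.43 with 1 library left out, above 0 without WT replicate 1 and, at 0.13, without nerd-1 replicate 1. That past AT5G16990 in cpsf30-1 against nerd-1 ranged from -0.89 to 0.23, above 0 without cpsf30-1 replicate 2 and, at 0.11, without nerd-1 replicate 1. Deviations of same-numbered libraries correlated at -0.01 and -0.34 for cpsf30-1 with nerd-1 and WT and at 0.00 for nerd-1 with WT. Libraries of the same number thus did not vary together. Whether libraries were paired in another order cannot be told from this. With the replicate block, 0 neighbours were called in any comparison, and all windows called were 592, 409 and 0. With the numbers of cpsf30-1 exchanged in the block, an alternative chosen after seeing the data, 3, 2 and 0 neighbours and 2118, 2440 and 17 windows were called. Low counts limit AT5G16960, and 2 libraries per genotype limit every error given here.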
